A study of Mus musculus with 16 samples.

Results

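The 41 genes described here encode the proteins that copy DNA in S phase and that make its nucleotide building blocks, measured in mouse ovarian follicles cultured with or without anti-Müllerian hormone (AMH). They were chosen by gene name, and each was read from the probe set with the highest mean signal among those annotated to it. Of the 41 genes, 40 had a probe set, among 18193 genes named in the annotation, and 39 passed a filter on low signals together with 12172 genes in all. Chaf1a, a subunit of chromatin assembly factor 1, had no probe set under that name in the annotation used here. Tyms, which encodes thymidylate synthase, was not tested, since the mean log2 signals of its 4 probe sets, 2.70 to 4.08, were under the filter at 4.18.

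The 16 Affymetrix arrays form 4 groups of 4. Follicles from the preantral to the small antral stage were dissected from female C57BL/6Tac mice, given as 8 weeks old in the sample labels and as 6 to 8 weeks in the series text. They were kept in individual drops for 12 h or 24 h with 0 ng/ml AMH (control) or 50 ng/ml recombinant AMH. All 4 groups, controls included, received both gonadotropins (FSH at 80 IU/L, LH at 10 IU/L), so no group shows follicles without gonadotropins, and none was taken before culture. A pool of follicles from 8 mice served each experiment and supplied both arms, an array held 6 to 9 follicles, and RNA was amplified from 5 ng. Values are log2(MAS5 signal + 1.46), and a change is a log2 difference with the standard error (SE) of the limma fit; "called" means a Benjamini-Hochberg adjusted p under 0.05 over all 12172 genes. Values of a group are listed from replicate 1 to replicate 4, and a number from 1 to 4 marks a pair of arms within a time.

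Before S phase, the origin recognition complex, Cdc6 and Cdt1 load the Mcm2 to Mcm7 helicase ring onto DNA, and geminin blocks a further round of loading. Cdc45 and GINS switch the ring on, primase and polymerase alpha start each strand, and polymerases delta and epsilon, held by the PCNA clamp that replication factor C loads, extend it. Many of these genes are transcribed under E2F factors as cells enter the cycle, and in a growing follicle the dividing cells are mainly granulosa and theca cells, while the oocyte is arrested in meiosis.

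Promoter sequence was read for these genes because E2F and CCAAT-box factors are textbook regulators of replication genes. The RefSeq table (GRCm38.p6, from 250 bases before to 50 bases after the annotated start) held 33 of the 41 genes, and Mcm4, Gins1, Gins2, Gins4, Gmnn, Prim2, Pole and Rfc2 were not in it. An E2F motif (TTTCCCGC, TTTGGCGC, TTTCGCGC or TTTGCCGC on either strand) stood in 13 of the 33 promoters (39.4%), against 704 of the 27025 genes in the table (2.6%). CCAAT, on either strand, stood in 21 of 33 (63.6%), against 41.1% of genes. The cell cycle homology element TTTGAA, on either strand, stood in 4 of 33 (12.1%), against 20.2%. The 200 bases before the start of 5 genes are shown 5′ to 3′ on the gene's own strand: 3 helicase genes that carry E2F motifs, in capitals, and 2 genes central to the changes with time, Pcna and Prim1, in which no E2F motif was found and CCAAT or its complement ATTGG is in capitals. In Mcm5 and Mcm6, motifs on opposite strands overlap and give a longer run of capitals.
Mcm5: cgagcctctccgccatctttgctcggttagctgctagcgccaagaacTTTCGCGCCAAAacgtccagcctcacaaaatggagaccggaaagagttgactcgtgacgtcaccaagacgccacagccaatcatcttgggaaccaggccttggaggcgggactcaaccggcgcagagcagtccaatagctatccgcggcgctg
Mcm6: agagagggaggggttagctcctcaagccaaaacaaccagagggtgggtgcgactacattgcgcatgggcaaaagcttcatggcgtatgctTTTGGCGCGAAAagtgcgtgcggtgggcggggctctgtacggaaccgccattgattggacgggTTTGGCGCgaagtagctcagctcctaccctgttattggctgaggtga
Mcm7: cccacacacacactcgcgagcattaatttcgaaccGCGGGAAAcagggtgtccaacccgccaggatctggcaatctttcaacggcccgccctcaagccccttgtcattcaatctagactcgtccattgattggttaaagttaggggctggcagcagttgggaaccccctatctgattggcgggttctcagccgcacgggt
Pcna: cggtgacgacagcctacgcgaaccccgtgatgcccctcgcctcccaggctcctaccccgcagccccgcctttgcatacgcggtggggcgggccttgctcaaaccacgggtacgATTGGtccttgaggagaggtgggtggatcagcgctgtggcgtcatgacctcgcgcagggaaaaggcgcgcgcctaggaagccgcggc
Prim1: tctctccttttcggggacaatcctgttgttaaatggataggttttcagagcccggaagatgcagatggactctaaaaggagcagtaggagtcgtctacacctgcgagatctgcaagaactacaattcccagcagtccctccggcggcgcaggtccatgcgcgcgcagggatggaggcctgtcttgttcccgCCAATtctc

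The windows lie at chr8:75109309-75109508 on the + strand for Mcm5, chr1:128359706-128359905 on the - strand for Mcm6, chr5:138171884-138172083 on the - strand for Mcm7, chr2:132253181-132253380 on the - strand for Pcna and chr10:128015015-128015214 on the + strand for Prim1. A match describes these letters and not a bound site.

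The label "ovarian follicle" matched the defining markers of granulosa cells and oocytes in part. Over the 16 arrays the granulosa genes Foxl2 and Amhr2 lay between log2 9.05 and 10.55 and between 9.17 and 10.89, and the oocyte gene Zp3 between 8.53 and 10.76, whereas Amh itself was low, between 2.40 and 5.79, and Fshr ranged from 2.56 to 8.12. Oocyte gene signal differed between arrays. The mean log2 signal of 23 oocyte genes ranged from 6.60 to 8.96. Among the 24 h arrays it was highest in control replicate 4 (8.65) and AMH replicate 1 (8.50). These arrays also stood apart for the replication genes. Of the 39 genes tested, 28 had the highest value of their group in control replicate 4 at 24 h and 28 had it in AMH replicate 1 at 24 h, while 33 had the lowest in control replicate 1 at 24 h and 28 had it in AMH replicate 4 at 24 h. In AMH replicate 1 at 12 h, 29 of the 39 were lowest. Because RNA came from whole follicles, fewer cells of a dividing type and less RNA per cell cannot be told apart in any result here.

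**Figure D1:**
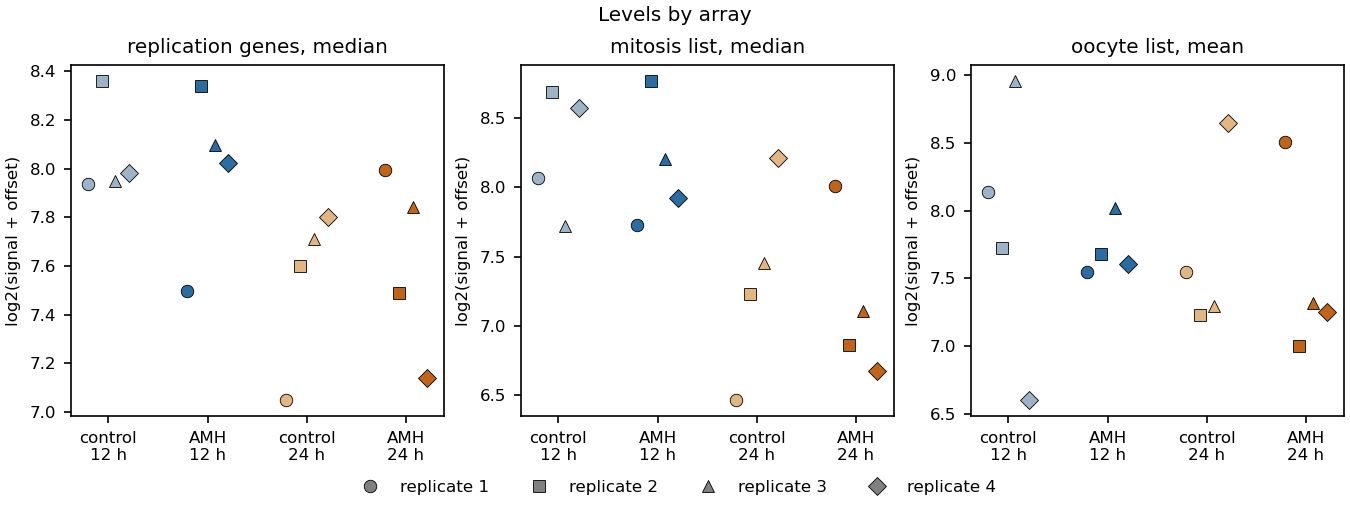
Median log2 signal of the 39 replication genes, median of the 30 mitosis genes and mean of the 23 oocyte genes on each of the 16 arrays, by group, with the marker shape giving the replicate. At 24 h, control replicate 4 and AMH replicate 1 are high in all 3 panels, and control replicate 1 and AMH replicate 4 have the lowest replication medians.

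Replication genes were lower at 24 h than at 12 h of culture. With each pair of arms averaged to 1 sample (4 pairs against 4), 20 of the 39 genes were called lower and 0 higher, where 11.8% of all genes tested were called lower and 12.1% higher. Their median change was -0.45, against -0.01 for all genes, and 35 of the 39 changes were below 0. For 18 of the 39 genes all 4 pair means at 24 h lay under all 4 at 12 h, which held for 13.9% of all genes. In 24 h pairs 1 and 4 the arms deviated from their group means in opposite directions (correlations of -0.437 and -0.287 over all genes tested). Averaging such arms cancels part of the spread between arrays, and the SE does not hold that part. With all 16 arrays and the pair as a random block 13 genes were called, beside 13.1% of all genes called lower. Without 24 h pairs 1 and 4 it was 2, beside 3.07%. The count of 20 rests on few pairs. Leaving out 24 h pair 1, 2 or 4 left 13, 11 or 12 genes called, beside 7.92%, 9.78% or 9.2% of all genes called lower. Leaving out 12 h pair 1 gave 28, and leaving out 12 h pair 2 gave 14, of which Orc1 was higher. In each of these 2 fits 10.6% of all genes were called lower. Of the 20 called genes, 9 were called in all 8 fits that left out a pair (Cdt1, Fen1, Mcm2, Mcm7, Orc6, Pcna, Prim1, Prim2 and Rfc4), and the other 11 each lost the call in at least 1, with highest adjusted p from 0.0527 to 0.129.

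**Figure D2:**
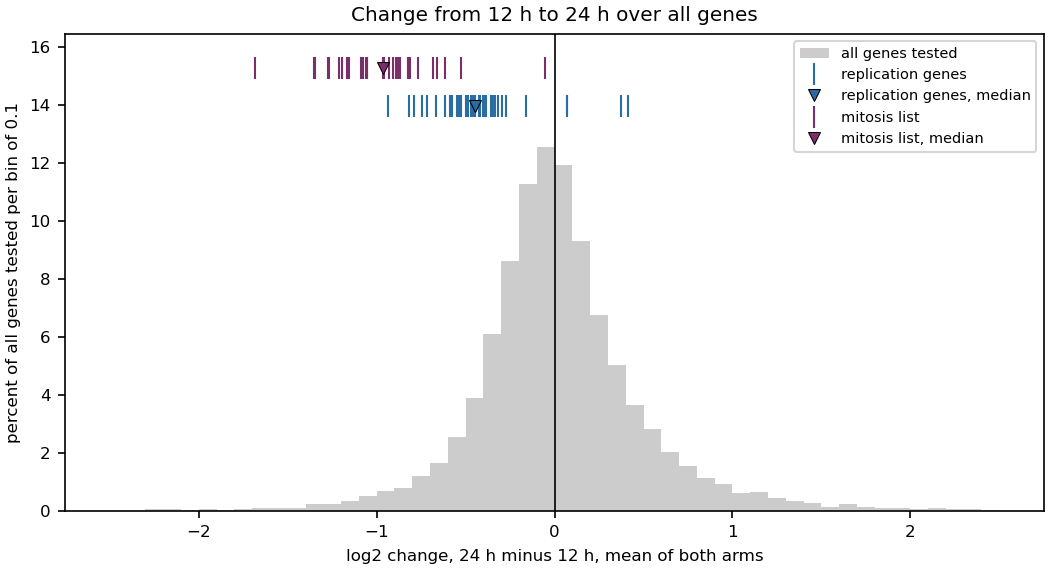
Histogram of the log2 change from 12 h to 24 h (mean of both arms) as a percentage of the 12172 genes tested (genes past the ends of the axis are not drawn), with the 39 replication genes and the 30 mitosis genes as ticks above it and their medians as triangles. Replication genes lie mostly below 0 around a median of -0.45, and mitosis genes lie lower, around -0.96.

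All 6 helicase subunits had lower means at 24 h, and 4 were called: Mcm2, Mcm3, Mcm6 and Mcm7. Mcm2 signals at 12 h were 7.93, 7.89, 8.18 and 7.51 in controls and 7.38, 7.86, 7.98 and 7.92 with AMH. At 24 h they were 6.41, 7.58, 7.21 and 7.68 in controls and 7.99, 7.03, 7.70 and 6.75 with AMH. Both arms were spread widely at 24 h: control replicate 1 and AMH replicates 2 and 4 were lowest, while control replicates 2 and 4 and AMH replicates 1 and 3 at 24 h lay inside the 12 h range. The change of Mcm2 was -0.54 (SE 0.12, adjusted p = 0.0101). For Mcm7 the controls read 9.83, 9.95, 9.88 and 9.89 at 12 h and 8.84, 9.86, 9.45 and 9.66 at 24 h. The arrays with AMH read 9.70, 10.10, 9.65 and 9.85 at 12 h and 10.35, 9.26, 9.43 and 9.19 at 24 h. All 4 controls at 12 h lay close together and above 3 of the 4 controls at 24 h, and AMH replicate 1 at 24 h was the highest array of all. The change of Mcm7 was -0.35 (SE 0.08, adjusted p = 0.0146); this probe set is of a type that can match related transcripts (suffix _s_at), and with such probe sets left out the change was -0.15 (adjusted p = 0.449). Mcm3 changed by -0.61 (adjusted p = 0.027) and Mcm6 by -0.42 (adjusted p = 0.0289). Mcm4, at -0.49 (adjusted p = 0.0917), and Mcm5, at -0.79 (adjusted p = 0.0687), were not called.

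Of the genes whose products activate the helicase, Gins1 (-0.53, SE 0.14, adjusted p = 0.0237) and Mcm10, an initiation factor that binds the activated helicase (-0.82, SE 0.22, adjusted p = 0.0251), fell. Mcm10 had 24 h values of 5.25, 5.24, 5.77 and 5.89 in controls and 6.93, 5.07, 5.24 and 4.48 with AMH, against 6.56, 6.23, 6.57 and 6.15 and 5.70, 6.52, 6.64 and 6.08 at 12 h. In controls no 24 h value reached the lowest 12 h value, while with AMH replicate 1 at 24 h was above every 12 h array. The other probe sets of Mcm10 over the filter changed by -0.25 and -0.56. Its call was kept in 3 of the 8 fits that left out a pair. Cdc45 (-0.55, adjusted p = 0.0711) and Gins2 (-0.30, adjusted p = 0.221) were not called, and Gins4 was at 0.07 (adjusted p = 0.631). The other probe set of Cdc45 over the filter changed by -0.005.

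In the licensing group, Cdt1, which loads the helicase, and Orc6, an origin recognition subunit, fell. In controls Cdt1 was at 9.08, 9.15, 9.67 and 8.74 at 12 h and 7.72, 7.88, 8.40 and 9.02 at 24 h. With AMH it was at 8.69, 8.88, 9.43 and 8.97 and 9.26, 8.04, 8.71 and 7.62, respectively. Control replicate 4 and AMH replicates 1 and 3 at 24 h reached the 12 h range and the other 24 h arrays did not. Cdt1 changed by -0.74 (SE 0.17, adjusted p = 0.013). Orc6 signals at 12 h were 8.12, 8.36, 8.51 and 7.98 in controls and 8.25, 8.22, 8.48 and 8.08 with AMH. At 24 h they were 7.63, 7.67, 7.77 and 7.80 in controls and 8.00, 7.65, 7.95 and 7.78 with AMH. Every 24 h control was lower than every 12 h control, and the same held with AMH. Orc6 changed by -0.47 (SE 0.11, adjusted p = 0.0138). Gmnn, which encodes geminin, the inhibitor of Cdt1, had a change of -0.45 (adjusted p = 0.0999) and Cdc6 of -0.40 (adjusted p = 0.303), neither called. Orc1, the largest origin recognition subunit, had a change of 0.41 (adjusted p = 0.209), and its other probe set over the filter had -0.08.

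Primase and polymerase genes were below 0 throughout, and 5 of 8 were called: Prim1 and Prim2, the catalytic and large subunits of primase, Pold1 and Pold2, of polymerase delta, and Pole, the catalytic subunit of polymerase epsilon. For Prim1 the controls read 7.81, 8.52, 8.43 and 8.32 at 12 h and 6.71, 7.45, 7.42 and 7.54 at 24 h. The arrays with AMH read 7.91, 8.41, 7.99 and 8.06 at 12 h and 7.93, 7.73, 7.84 and 7.09 at 24 h. Every 24 h control was under every 12 h control, with replicate 1 lowest at both times, and with AMH the ranges touched through replicate 1. Prim1 changed by -0.72 (SE 0.14, adjusted p = 0.00573). In controls Prim2 was at 7.30, 7.62, 6.95 and 7.81 at 12 h and 6.87, 6.82, 6.85 and 7.21 at 24 h. With AMH it was at 7.14, 7.95, 7.81 and 7.49 and 6.79, 6.80, 7.15 and 6.87, respectively. All 8 arrays at 12 h were above 6 of the 8 arrays at 24 h, and control replicate 4 and AMH replicate 3 at 24 h lay within the 12 h values. Prim2 changed by -0.59 (SE 0.14, adjusted p = 0.0138). Pole had the largest change of the 20 called genes, -0.94 (SE 0.24, adjusted p = 0.0195; 0.055 without 24 h pair 4), with 24 h values of 5.05, 5.86, 5.59 and 6.56 in controls and 6.59, 5.65, 6.20 and 4.57 with AMH and 12 h values of 6.49, 7.25, 7.11 and 6.83 and 5.59, 7.30, 6.84 and 6.17. Its 24 h values spanned more than 2 log2 units with AMH, from replicate 4 to replicate 1. Pold1 had -0.36 and Pold2 -0.43, while Pola1 (-0.54), Pola2 (-0.38) and Pole2 (-0.46) were not called, at adjusted p from 0.0628 to 0.11.

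Pcna, the sliding clamp, had the smallest p of the 39 genes. Pcna signals at 12 h were 10.76, 10.70, 10.64 and 10.53 in controls and 10.37, 10.46, 10.57 and 10.42 with AMH. At 24 h they were 9.54, 10.27, 10.03 and 10.05 in controls and 10.46, 9.99, 10.12 and 10.02 with AMH. All 8 arrays at 12 h lay in a narrow band, every 24 h control was under it, and of the 24 h arrays with AMH replicate 1 alone was inside it. Pcna changed by -0.50 (SE 0.07, adjusted p = 0.00108), and it was called in all 23 alternatives run. In the clamp loader gene Rfc4 all 8 arrays at 24 h lay under all 8 at 12 h. It was the only one of the 39, and 1 of 39 is near the 3.23% of all genes that met this. For Rfc4 the controls read 7.64, 7.93, 7.53 and 7.68 at 12 h and 7.02, 7.21, 7.31 and 7.02 at 24 h. The arrays with AMH read 7.44, 8.53, 7.91 and 7.64 at 12 h and 7.23, 7.08, 7.28 and 6.82 at 24 h. The highest 24 h array, control replicate 3, stayed under the lowest 12 h array, AMH replicate 1. Rfc4 changed by -0.66 (SE 0.16, adjusted p = 0.0128), and by -0.44 (adjusted p = 0.11) with probe sets of the _s_at and _x_at types left out. Rfc5 was called at -0.39 (adjusted p = 0.0491). Rfc2 (-0.34) and Rfc3 (-0.32) were not called, and Rfc1, the large subunit of the loader, was at 0.07, with 3 probe sets that did not share a sign.

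Fen1, the nuclease that trims Okazaki fragments, and Lig1, the ligase that joins them, fell. In controls Fen1 was at 9.76, 9.97, 9.67 and 9.52 at 12 h and 8.62, 9.34, 9.10 and 9.25 at 24 h. With AMH it was at 9.82, 10.12, 9.64 and 9.45 and 9.77, 9.17, 9.36 and 8.73, respectively. Every 24 h control was under every 12 h control, whereas with AMH replicate 1 at 24 h lay among the 12 h values. Fen1 changed by -0.58 (SE 0.12, adjusted p = 0.00741), and Lig1 by -0.45 (adjusted p = 0.031). The single-strand binding subunits Rpa1 (-0.27, adjusted p = 0.0604) and Rpa2 (-0.16, adjusted p = 0.371) were not called.

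Both subunits of ribonucleotide reductase, the enzyme that makes deoxynucleotides, fell. Rrm1 signals at 12 h were 9.67, 10.01, 9.42 and 10.09 in controls and 9.92, 9.77, 9.70 and 9.41 with AMH. At 24 h they were 8.97, 9.20, 9.65 and 9.56 in controls and 9.74, 9.46, 9.34 and 9.31 with AMH. The 12 h and 24 h ranges overlapped in both arms, in controls through the low replicate 3 at 12 h. Rrm1 changed by -0.34 (SE 0.09, adjusted p = 0.017), and without 24 h pair 1 its adjusted p was 0.0527. Rrm2 changed by -0.58 (SE 0.15, adjusted p = 0.019), and Tk1, thymidine kinase 1, had -0.45 (adjusted p = 0.109). Of the genes for chromatin behind the fork, Uhrf1, which recruits the maintenance DNA methyltransferase, had -0.40 (adjusted p = 0.167) and Chaf1b 0.37 (adjusted p = 0.143). The 4 genes above 0 were thus Gins4, Orc1, Rfc1 and Chaf1b, and with each array centred on its median only Orc1 and Chaf1b were.

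**Figure D3:**
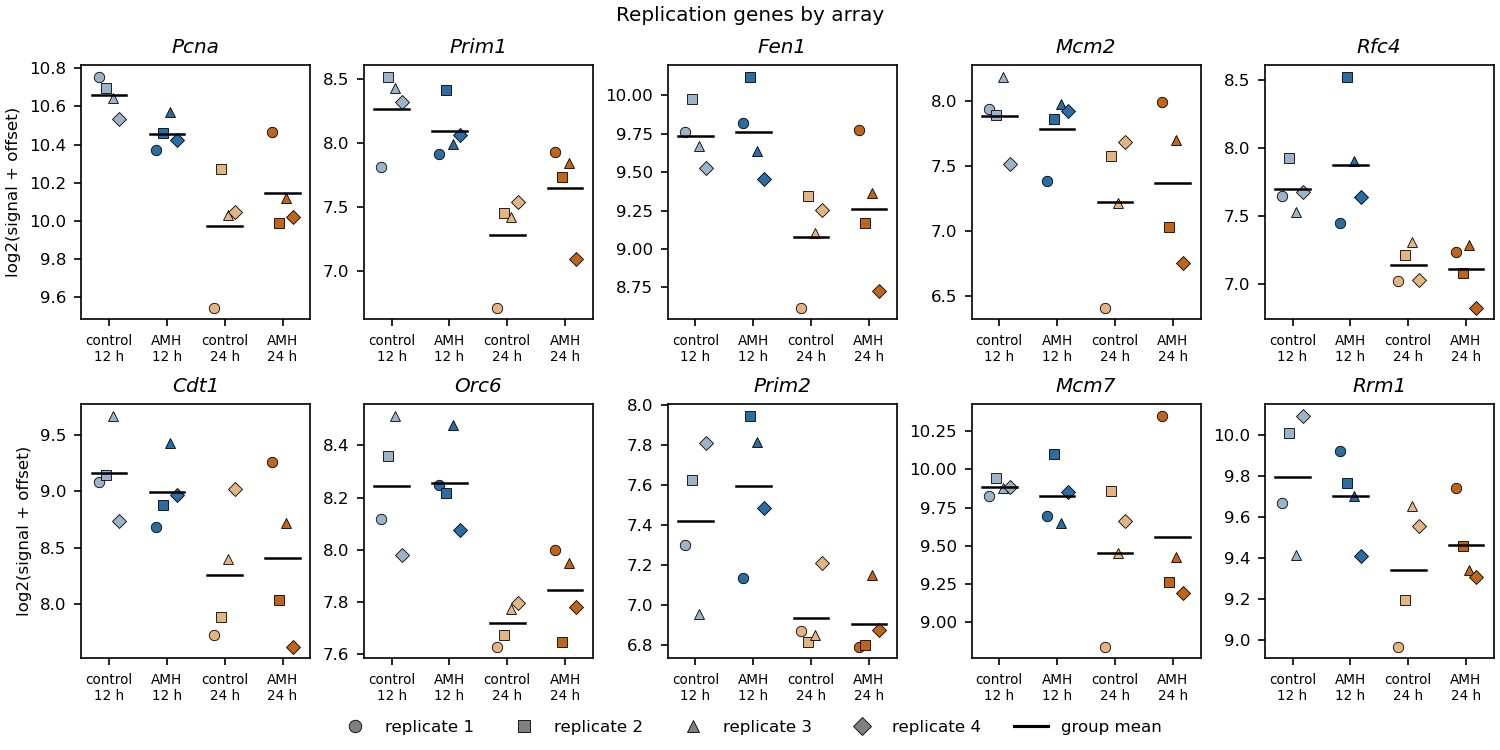
Log2 signal of the 10 replication genes with the smallest p for the change from 12 h to 24 h (mean of both arms), for each of the 16 arrays by group, with the replicate as marker shape and the group mean as a line. For Rfc4 every 24 h value lies under every 12 h value, and for Pcna the 24 h array with AMH replicate 1 lies within the 12 h values.

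The promoter motifs did not separate called from uncalled genes in the counts. An E2F motif stood in 6 of the 17 called genes in the table (Mcm3, Mcm6, Mcm7, Cdt1, Pold1 and Lig1) and in 7 of the 14 tested genes that were not called (Mcm5, Orc1, Cdc6, Pola1, Pole2, Rfc3 and Uhrf1). CCAAT stood in 11 of 17 and 9 of 14. In the windows printed above, Mcm5 and Mcm6 both hold overlapping E2F motifs, and Mcm6 was called and Mcm5 was not.

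Within each arm the change was estimated from 4 arrays at each time, and fewer genes were called. In controls 6 of the 39 genes were called lower and 0 higher, beside 9.19% lower and 9.96% higher among all genes, with a median change of -0.55. The called genes were Pcna (-0.69, adjusted p = 0.00272), Prim1 (-0.99, adjusted p = 0.00556), Orc6 (-0.53, adjusted p = 0.0117), Mcm6 (-0.64, adjusted p = 0.032), Fen1 (-0.65, adjusted p = 0.0341) and Pole2, an accessory subunit of polymerase epsilon (-0.69, adjusted p = 0.049). Mcm6 read 10.30, 10.34, 10.54 and 10.27 at 12 h and 9.28, 9.42, 9.96 and 10.21 at 24 h. Controls at 12 h were tight, and at 24 h control replicates 1 and 2 were lowest. Pole2 read 6.77, 7.43, 7.27 and 7.20 at 12 h and 6.39, 6.55, 6.05 and 6.90 at 24 h. All but control replicate 4 at 24 h were under the lowest 12 h value. For 12 of the 39 genes no 24 h control reached the lowest 12 h control, against 10.9% of all genes. The count of called genes was 3 without control 12 h replicate 2 or without control 24 h replicate 1. There 7.15% and 6.5% of all genes were called lower, so 3 of 39 is near the share among all genes. The count was 13 without control 24 h replicate 4, beside 9.18% of all genes called lower. Pcna, Prim1 and Orc6 kept their calls in all 8 such fits, and Mcm6, Fen1 and Pole2 did so in 3, 3 and 2 of 8. Mcm6 was at -0.40 (adjusted p = 0.294) with _x_at and _s_at probe sets left out.

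With AMH, 2 of the 39 were called lower and 0 higher, beside 3.94% lower and 4.34% higher among all genes, with a median change of -0.29. The count of 2 of 39 is thus near the share among all genes. The 2 called genes were Rfc4, at -0.77 (SE 0.19, adjusted p = 0.0217), and Prim2, at -0.69 (SE 0.20, adjusted p = 0.0431). Orc6, the next by p, was at -0.41 (adjusted p = 0.0653) and was not called. All 24 h arrays with AMH lay under all 12 h arrays with AMH for Orc6 and Rfc4 only. That is 2 of 39, no more than the 7.65% of all genes that met this. The Rfc4 call was lost without AMH 12 h replicate 3, AMH 24 h replicate 2 or AMH 24 h replicate 4 (highest adjusted p = 0.064), and the Prim2 call was kept in 2 of 8 such fits (highest adjusted p = 0.122). Over all 23 alternatives run, Rfc4 was called in 17 and Prim2 in 12. The Rfc4 change ran there from -0.92 to -0.28, with a highest adjusted p of 0.535 in the limma fits. Whether the arms differ in their change over time is the same test as whether the AMH difference changed between the times, and no replication gene was called in it, as given below.

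**Figure D4:**
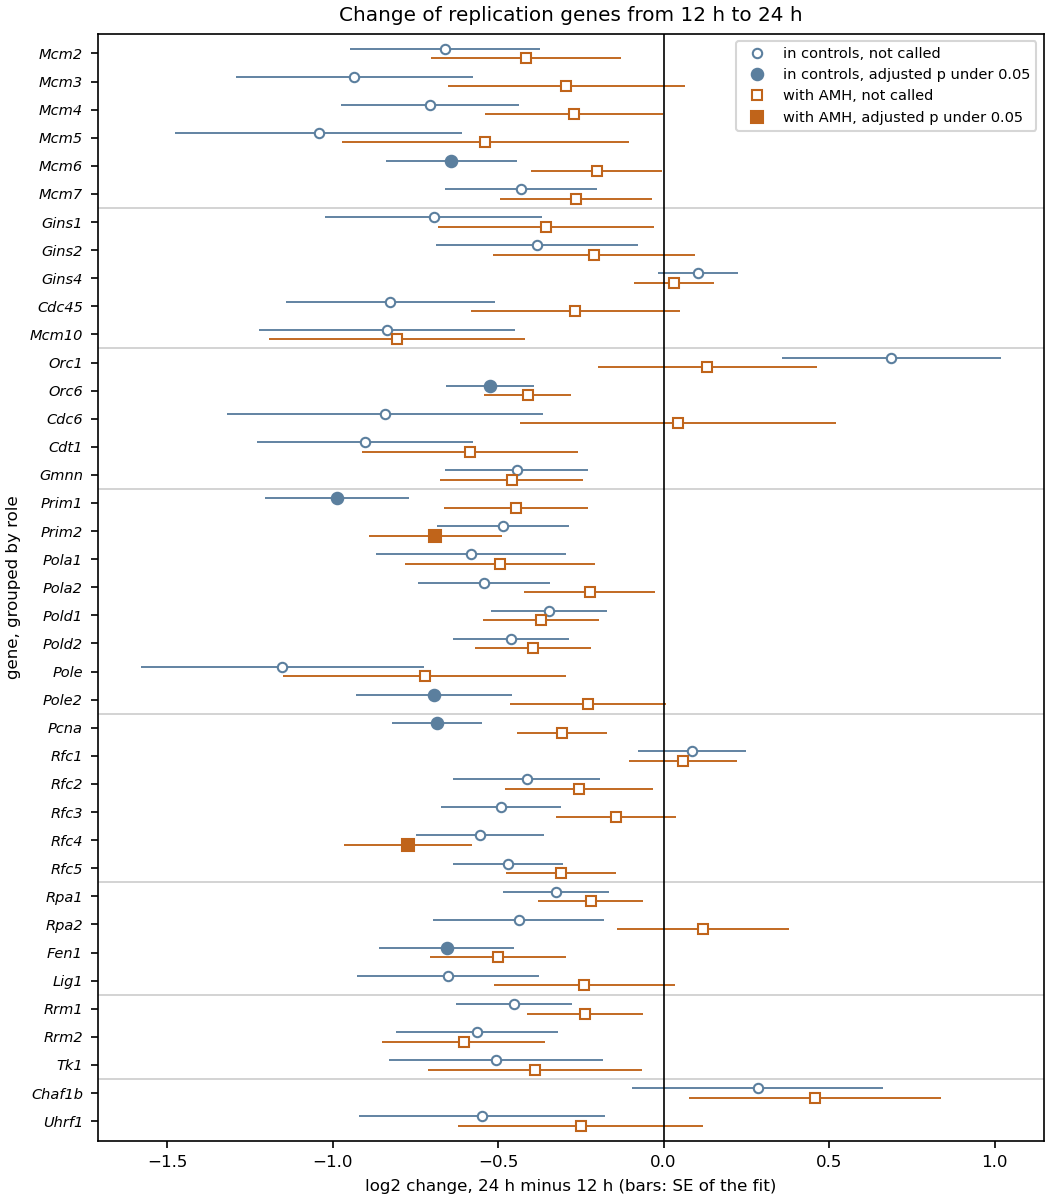
Log2 change from 12 h to 24 h of the 39 tested genes, ordered by role, in controls (circles) and with AMH (squares), with bars for 1 SE and filled markers for adjusted p under 0.05. Most changes lie below 0 in both arms, with medians of -0.55 in controls and -0.29 with AMH, and 6 and 2 markers are filled.

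No replication gene was called between AMH and control at 12 h, 0 of 39 in the limma fit, where 0% of all genes were called. At an unadjusted p under 0.05 it was also 0 of 39, against 6.47% of all genes. The median difference, AMH minus control, was -0.10, against 0.01 for all genes, and 26 of the 39 were below 0. In 9 genes all 4 pairs were below 0 (Mcm3, Mcm4, Mcm5, Mcm6, Gins1, Pole2, Pcna, Rfc3 and Rfc5), and 7.71% of all genes met this. All 6 helicase genes had a negative difference, also under quantile normalization and median centring, between -0.26 (Mcm4, SE 0.22) and -0.06 (Mcm7, SE 0.27). Without 12 h pair 1, Mcm2 was at 0.06 and the other 5 stayed below 0.

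The smallest p values at 12 h belonged to Rfc3, Rpa2 and Pole2, none called. Rfc3 read 7.41, 7.52, 7.95 and 7.39 in controls and 6.92, 7.32, 7.57 and 7.16 with AMH. The AMH array was the lower of each pair, with differences of -0.49, -0.20, -0.38 and -0.23, although the groups overlapped, and the mean difference was -0.33 (SE 0.17, adjusted p = 0.799). Rpa2 read 7.82, 8.30, 7.87 and 8.23 in controls and 7.30, 7.56, 7.93 and 7.50 with AMH. AMH replicate 3 was level with its control and the other AMH arrays were under theirs, with a difference of -0.48 (SE 0.30, adjusted p = 0.824). Pole2 read 6.77, 7.43, 7.27 and 7.20 in controls and 6.38, 7.12, 7.10 and 6.81 with AMH. Each AMH array was under its own control, but the ranges overlapped through control replicate 1, and the difference was -0.32 (SE 0.23, adjusted p = 0.865).

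At 24 h no replication gene was called either, 0 of 39, where 0.0164% of all genes were. At an unadjusted p under 0.05 the count was 0 of 39, against 4.07% of all genes. The median difference was 0.11, against 0.01 for all genes, with 29 of 39 above 0. Without 24 h pair 1 the median was -0.13 and without pair 4 it was 0.32. No gene was below 0 in all 4 pairs, where 3.44% of all genes were. None was above 0 in all 4 either, and the share of all genes that met this was not computed. All 6 helicase genes had a positive difference at 24 h, also under quantile normalization and median centring, from 0.11 (Mcm7, SE 0.27) to 0.41 (Mcm3, SE 0.39), and none was called. This rests on pair 1: without it 4 of the 6 were below 0 (Mcm2, Mcm3, Mcm5 and Mcm7, between -0.36 and -0.21), and without pair 3, 2 of the 6 were.

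The 24 h pairs went in opposite directions. In pair 1, 37 of the 39 genes were higher with AMH (median difference 0.92), and in pair 4, 38 of the 39 were lower (median -0.56), where 53% and 50.1% of all genes went these ways. Pair 2 had a median of -0.14 and pair 3 of 0.26. Some cell type markers moved with these pairs: the mean of 23 oocyte genes differed by 0.96 in pair 1, -0.23 in pair 2, 0.03 in pair 3 and -1.40 in pair 4, that of 11 granulosa genes by 0.99, -0.31, 0.04 and -0.46, and the median of 30 mitosis genes by 1.55, -0.37, -0.35 and -1.54. Other markers did not follow the replication genes: theca genes differed by -0.52, -0.12, 0.35 and 0.35 in pairs 1 to 4, immune genes by -0.22, 0.90, 0.98 and 1.09, surface epithelium genes by -0.09, -0.59, -0.14 and 0.56, stroma and smooth muscle genes by 0.66, 0.95, 0.43 and 0.06, and endothelial genes by 0.26, 0.71, 0.32 and -0.30. The part of these shifts in the result was not tested. At 12 h the medians of the replication genes were closer together, -0.29, -0.07, -0.05 and -0.13, while the oocyte mean differed by -0.59, -0.04, -0.94 and 1.00.

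**Figure D5:**
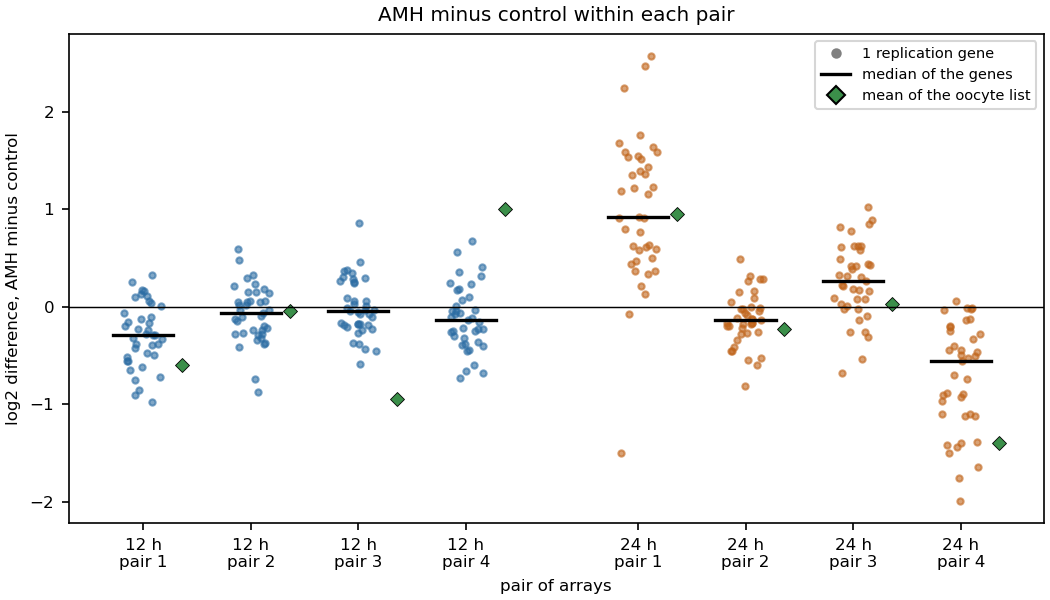
Log2 difference, AMH minus control, of the 39 tested replication genes in each of the 8 pairs of arrays, with 1 dot per gene, a line at the median of the genes and a diamond for the mean difference of the 23 oocyte genes. The medians lie between -0.29 and -0.05 at 12 h, and between -0.56 (pair 4) and 0.92 (pair 1) at 24 h.

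Prim1, Mcm6 and Cdc45 had the smallest p values at 24 h. Prim1 read 6.71, 7.45, 7.42 and 7.54 in controls and 7.93, 7.73, 7.84 and 7.09 with AMH. AMH replicates 1 to 3 were above their controls and replicate 4 was under its own, with a difference of 0.37 (SE 0.22, adjusted p = 1). Mcm6 read 9.28, 9.42, 9.96 and 10.21 in controls and 10.46, 9.74, 10.29 and 9.72 with AMH. The AMH array was the higher in pairs 1 to 3 and the lower in pair 4, with a mean difference of 0.33 (SE 0.20, adjusted p = 1). Cdc45 read 4.36, 5.24, 5.25 and 5.54 in controls and 6.11, 5.20, 5.87 and 5.13 with AMH. The control in pair 1 was the lowest array and its AMH partner the highest, and the difference was 0.48 (SE 0.33, adjusted p = 1).

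Averaged over both times, 0 of 39 genes were called between AMH and control, as were 0% of all genes. The smallest p values were those of Rfc3 (-0.15, SE 0.12), Uhrf1 (-0.27, SE 0.27) and Gins2 (-0.22, SE 0.23), each at adjusted p = 0.999. At 24 h Rfc3 read 6.79, 7.07, 7.11 and 7.32 in controls and 7.29, 7.01, 7.32 and 6.77 with AMH. With the 12 h values given above, the AMH array of Rfc3 was the lower in 6 of 8 pairs, all but 24 h pairs 1 and 3. For Uhrf1 the controls read 8.80, 9.00, 9.60 and 8.47 at 12 h and 7.87, 8.15, 8.32 and 9.33 at 24 h. The arrays with AMH read 7.83, 8.58, 9.02 and 8.78 at 12 h and 9.26, 7.88, 8.49 and 7.58 at 24 h. The AMH array was the lower in 5 of 8 pairs, and control replicate 4 and AMH replicate 1 were high at 24 h. In controls Gins2 was at 7.49, 7.95, 7.88 and 7.96 at 12 h and 6.55, 7.69, 7.71 and 7.80 at 24 h. With AMH it was at 6.85, 7.58, 7.89 and 7.73 and 7.99, 7.49, 7.03 and 6.70, respectively. The AMH array was the lower in 6 of 8 pairs, and control replicate 1 was low at 24 h. At an unadjusted p under 0.05 the count was 0 of 39, against 4.81% of all genes. In the test of whether the AMH difference changed between the times, 0 of 39 genes and 0% of all genes were called, and the unadjusted count was 0 of 39, against 5.64%. In this test Prim1 had 0.54 (SE 0.31, adjusted p = 0.904), Pcna 0.38 (SE 0.23, adjusted p = 0.918) and Mcm6 0.44 (SE 0.28, adjusted p = 0.928), each the AMH difference at 24 h minus that at 12 h. For Pcna the pair differences were -0.39, -0.24, -0.07 and -0.11 at 12 h and 0.92, -0.28, 0.09 and -0.02 at 24 h, so the 24 h mean rests on pair 1. Mcm6 with AMH read 10.15, 10.27, 10.48 and 10.11 at 12 h, each under its own control. The SE of an AMH difference at either time lay between 0.12 and 0.49, so a miss of the threshold does not show that the arms were alike.

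Other genes of the pathway, listed by known function, gave mixed counts from 12 h to 24 h (mean of both arms), to be read beside the 11.8% of all genes called lower and 12.1% called higher. Of 31 other origin and fork genes, 9 were called lower and 1 higher, with a median of -0.30. Of 29 other nucleotide synthesis genes tested, 7 were lower and 4 higher, with a median of -0.11. Dck, a salvage kinase for deoxynucleosides (-0.84, adjusted p = 0.00244), Shmt2, the mitochondrial serine hydroxymethyltransferase (-0.91, adjusted p = 0.0032), and Nme1, a nucleoside diphosphate kinase (-0.60, adjusted p = 0.00373), fell, and Prps2, which makes the ribose donor for nucleotides, rose (0.95, adjusted p = 0.00121). Of 12 other chromatin assembly and methylation genes 2 were lower and 0 higher. The 4 higher nucleotide synthesis genes and the 2 lower chromatin genes are near the shares among all genes. None of the 88 genes of these lists was called for AMH in any of its 4 tests.

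In the E2F and Rb family, 7 of 16 were called lower and 2 higher, with a median of -0.38. Among all genes 11.8% were called lower and 12.1% higher, and the 2 higher genes are near that share. E2f6, a repressor (-0.51, adjusted p = 0.00281), and Lin54, a DNA-binding subunit of the DREAM complex (-0.72, adjusted p = 0.00322), fell. Chosen after their values were seen, the repressors E2f7 (-1.14, adjusted p = 0.00679) and E2f8 (-1.17, adjusted p = 0.00838) fell and Rbl2, a pocket protein (0.49, adjusted p = 0.0359), rose.

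In controls alone the smallest p values of these lists belonged to Prps2 (1.04), Rnaseh2c (-0.57), a subunit of ribonuclease H2, Dck (-0.96), Ctc1, of the telomere CST complex (0.97), Tfdp1, an E2F partner (-0.49), and Lin54 (-0.83), all called. With AMH alone they belonged to Tfdp2, another E2F partner (1.18), Prps2 (0.86), the folate enzyme Mthfd2 (-0.90), Lin9, of the DREAM complex (-0.60), Prps1 (-0.76) and Orc2 (-0.49), all called. With AMH, then, Prps2 rose while Prps1, its close relative, fell.

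Markers of division and of cell type moved over the same interval, where 11.8% of all genes were called lower and 12.1% higher. Of 30 mitosis genes tested, 27 were called lower and 0 higher from 12 h to 24 h (mean of both arms), with a median of -0.96 beside -0.45 for the replication genes; the difference between the lists was not tested. Of 11 granulosa genes 9 were called higher and 1 lower, with a median of 0.87, and their summed signal ran from 6424 to 10781 in controls at 12 h, 6982 to 13297 with AMH at 12 h, 12743 to 19179 in controls at 24 h and 12283 to 21139 with AMH at 24 h. Of 10 stroma and smooth muscle genes 8 were higher and 0 lower, with summed signals from 2134 to 6269 over the 12 h arrays and from 5758 to 10161 over the 24 h arrays. Theca genes were higher in 3 of 5 (summed signals 4867 to 7133 at 12 h, 6424 to 14054 at 24 h).

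Oocyte genes were called in 0 of 23, with a median of -0.18, and their summed signal ran from 3727 to 18269 at 12 h and from 4708 to 14332 at 24 h. Of 10 surface epithelium genes 1 was higher and 3 were lower, with summed signals from 4116 to 7728 at 12 h and from 2432 to 5147 at 24 h. Of 8 immune genes 2 were lower, with summed signals from 516 to 1814 at 12 h and from 419 to 1537 at 24 h, and the defining gene Ptprc was under the filter. Endothelial genes were called in 0 of 11 (1161 to 4368 at 12 h, 1283 to 2407 at 24 h), with Vwf under the filter, and of 5 red blood cell genes 1 was tested and was not called. The part of these shifts in the changes of the replication genes was not tested.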

How the data were processed

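Per the submitters' processing notes, the authors made the deposited values with MAS5 (version not given in the sources used here): linear signal intensity per probe set, 1 array per sample. The 16 arrays shared a 2% trimmed mean of 150.0, so a global scaling had been applied before deposit, and no further scaling was done. Per the labels' protocols, RNA was amplified with Ovation Pico WTA and labelled with the Encore biotin module. The median signal per array lay between 27.8 and 40.2, and 4 arrays per group limit the precision.

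From these values log2(signal + 1.46) was computed, 1.46 being the 10th percentile over all arrays. After 64 control probe sets of 45101 were removed, 34945 had 1 gene symbol in the platform annotation, 932 had several and 9160 had none. Probe sets under the 40th percentile of mean log2 signal (4.18, a signal of 16.6) were dropped, and each gene was read from its probe set of highest mean. Models were fitted with limma 3.58.1 (R 4.3.3; lmFit and eBayes with trend), with Benjamini-Hochberg adjustment over 12172 genes. AMH effects came from all 16 arrays with the 8 pairs as a block, since the series text states the pairing. Paired arrays deviated from their group means with correlations from 0.214 to 0.56 at 12 h and from -0.437 to 0.327 at 24 h. Changes with time came from 4 group means with no block, as no label ties a 12 h pool to a 24 h pool, and for the mean of both arms from 8 pair means. The fits were tested on simulated data with independent noise on each array. That simulation cannot show how opposite deviations within pairs affect the SE.

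The genes, lists and tests were chosen with earlier results of these data known. Values in every array are given, per comparison, for up to 10 called genes of smallest p, filled to 3 where fewer were called. Mcm10 and Pole are given in addition. Of the pathway lists up to 6 called genes per comparison are named by smallest p. Promoter windows came from RefSeq (GRCm38.p6), matched by symbol. Figures were drawn with matplotlib 3.10.9 (Python 3.11.15). Alternatives were other offsets, filters, scalings, probe set rules, weights, blocks, a covariate for oocyte genes, fewer arrays and each replicate left out. Added with the data in view were the fits on 16 separate arrays and those without arrays rich in oocyte transcripts. Replicates were separate pools of mice, per the labels' protocols.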

Additional observations from a re-analysis of the deposited data

Results flagged for a closer look

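In 9 of the 156 groups of 4 arrays checked, the highest or lowest array stood apart from the other 3 by more than Dixon's 95% limit, where chance flags about 1 in 20 groups (7.8 of 156). Control replicate 1 at 24 h was the low array in 4 of them: Gins2 was at 6.55 there against 7.69 to 7.80 in the other controls, Gmnn at 7.77 against 8.11 to 8.17, Prim1 at 6.71 against 7.42 to 7.54, and Chaf1b at 4.81 against 6.57 to 6.91. In controls at 24 h, Prim2 was high in replicate 4, at 7.21 against 6.82 to 6.87. With AMH at 24 h, Pola2 was high in replicate 2, at 6.44 against 6.19 to 6.22, and Rfc1 in replicate 1, at 8.74 against 8.15 to 8.25. With AMH at 12 h, Mcm4 was high in replicate 3, at 9.77 against 8.93 to 9.07, and Tk1 was low in replicate 1, at 5.67 against 6.65 to 6.79. All values are log2 signals.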

How the results depend on the processing

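The 18 results for called genes given with their values kept their direction in every alternative run for them, 4 were called in every setting (Pcna, Prim1 and Orc6 in controls and Pcna for the mean of both arms), and the 13 named without a call kept their direction too. The median change of the replication genes with time kept its sign in every setting: -0.73 to -0.45 in controls, -0.45 to -0.19 with AMH, and -0.55 to -0.38 for the mean of both arms. For AMH the count of called genes was 0 in every alternative, while the median difference ran from -0.13 (without replicate 1) to 0.32 (without replicate 4) at 24 h, from -0.11 to 0.13 for the mean of both times and from -0.13 to 0.50 for the difference between the times over the fits that left out a replicate.

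Counts of called genes with time moved more, and each is given with the percentage of all genes called lower in the same fit. In controls (6, 9.19%) they were 11 with quantile normalization (10.2%), 21 with median centring (15.4%) and 24 with array weights (16.1%). They were 17 without the oocyte-rich 24 h arrays (9.74%) and 3 to 13 with a replicate left out (6.5% to 9.18%). With AMH (2, 3.94%) they were 1 with no filter (2.16%), 1 with median centring (2.32%) and 0 with the mean of probe sets (3.75%). They were 1 without _x_at and _s_at probe sets (3.61%) and 5 with array weights (7.69%). With only the arrays of that arm they were 0 (2.96%), and with a replicate left out 0 to 2 (1.81% to 3.82%). For the mean of both arms (20, 11.8%) they were 13 with all 16 arrays and the pair as a random block (13.1%). They were 2 without 24 h pairs 1 and 4 (3.07%) and 11 to 28 with a pair left out (7.92% to 10.9%). Causes were not tested.

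Median centring moved the median of all genes to -0.19 in controls, to -0.12 for the mean of both arms and to 0.12 for AMH at 24 h, and the share of all calls that were lower from 48% to 75.4% in controls and from 49.4% to 69% for the mean of both arms. The replication genes' median less that of all genes stayed at -0.54 and -0.44. For the times, 12 h and 24 h arrays share only a replicate number. With the number as a replicate block the counts were 9 in controls, 3 with AMH and 20 for the mean of both arms. Beside them 10.5%, 4.83% and 12.2% of all genes were called lower. In these fits Pole2 in controls lost its call (adjusted p = 0.0622) and Orc6 with AMH gained one (adjusted p = 0.0481). Without the replicate block the counts for the AMH difference were 0. Arrays of a number correlated across times between -0.409 and 0.247. Signals near the filter limit what can be seen for Tyms, Cdc45 and Orc1. In AMH replicate 4 at 24 h, Mcm10 (4.48) and Pole (4.57) were near it too.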
